A study of Mus musculus with 2 samples.

Results

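The genes described here encode the axoneme, the moving core of motile cilia, in mouse lung. Members were protein-coding genes chosen by symbol: dynein heavy and intermediate chains (Dnah, Dnaic), dynein arm assembly factors (Dnaaf), numbered cilia and flagella associated proteins (Cfap), radial spoke heads (Rsph) and tektins (Tekt), together with Dnali1, Dnal1, Dynlrb2, Ccdc39, Ccdc40, Hydin, Tppp3, Sntn and Pifo. The rule finds 74 genes in the reference annotation. The deposited tables hold 73 of them, among 43346 genes in all and 21474 protein-coding genes, and Cfap99 was not analysed here. No measured value entered the rule. Polyadenylated RNA came from lung tissue of 1 adult female C57BL/6J mouse, aged 10 weeks. It was sequenced in 2 libraries, called replicates 1 and 2, which the labels describe as technical repeats of biological replicate 1. Replicate 2 was made at a later time. The libraries held 16104442 and 17110882 expected counts, meaning reads assigned to genes by the authors' estimate. There is 1 group and no condition to compare, so the data give the level of each gene and the gap between the libraries. SDs are taken over the n = 2 libraries and show technical spread alone. A shared RNA extraction is not stated in the labels.

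Motile cilia beat because dynein motors on one microtubule doublet slide the neighbouring doublet. Outer and inner dynein arms supply the force, and radial spokes and the central apparatus regulate it. Filaments such as the tektins run inside the doublet wall. In the lung these cilia are carried by the multiciliated cells of the airways and move mucus towards the throat. Defects in many of these genes cause primary ciliary dyskinesia.

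Axoneme genes were expressed in this lung at mostly low levels. Levels are given in TPM, transcripts per 1000000, which corrects for transcript length and so lets genes be compared. At a TPM of at least 1, 49 of the 73 members were detected in replicate 1, where 52.2% of protein-coding genes reached that level. In replicate 2 it was 60 members, against 60.6% of protein-coding genes. All 49 detected in replicate 1 were also detected in replicate 2 (background 49.9% in both), and 11 were detected in replicate 2 alone (background 10.7%). No member was detected in replicate 1 alone (background 2.33%). The median member was at 2.45 and 4.31 TPM. The members summed to 630.8 TPM and 1270.2 TPM, a mean of 950.5 ± 452 TPM (SD, n = 2). Tppp3 alone made up 0.182% of the first sum and 43.1% of the second. Without it the sums were 629.7 and 722.8 TPM, or 676 ± 65.9 TPM (SD, n = 2). Whole lung mixes many cell types, so fewer ciliated cells and less RNA per ciliated cell cannot be told apart in any of these levels.

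**Figure D1:**
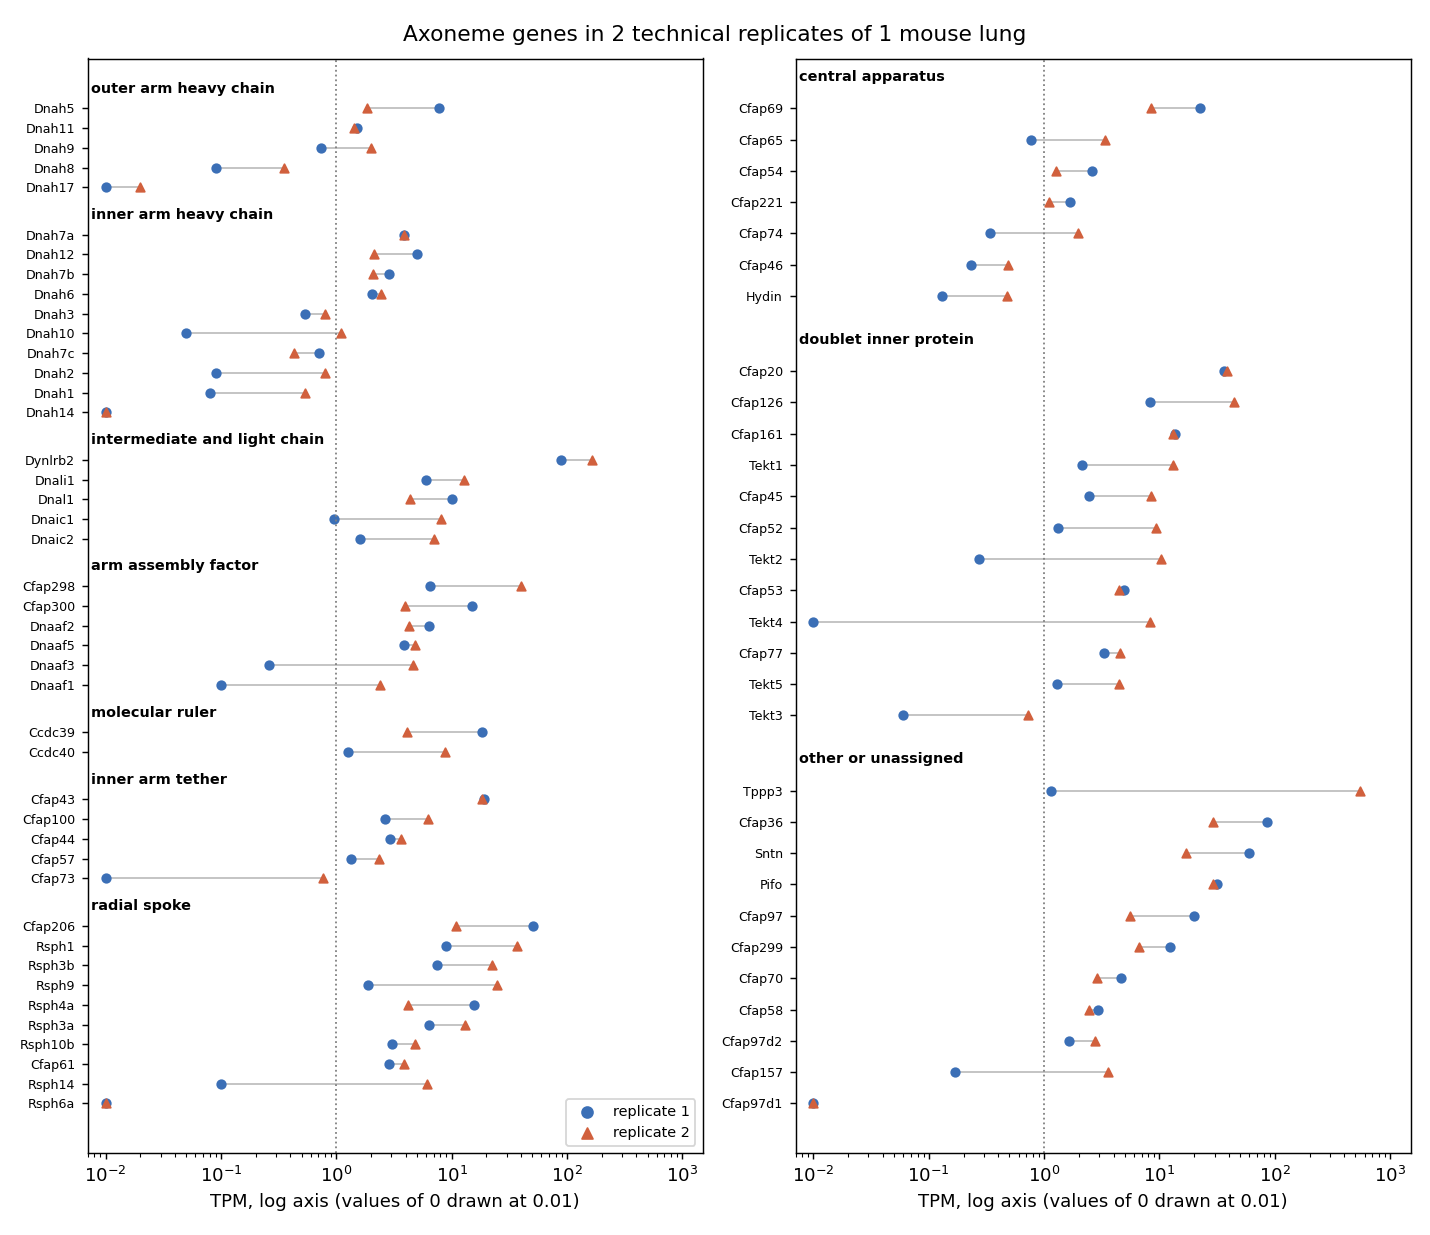
Each row is 1 axoneme gene, with its TPM in replicate 1 (blue circle) and replicate 2 (orange triangle) on a log axis, grouped by structural class. The dotted line marks a TPM of 1, and values of 0 are drawn at 0.01. Tppp3 runs from 1.15 to 547 TPM and Tekt4 from 0 to 8.22 TPM, while Cfap20, Pifo and Cfap161 have nearly coincident points.

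Outer arm heavy chains are large motor subunits, and of the 5 members 2 reached a TPM of 1 in replicate 1 and 3 in replicate 2. Dnah5 (chromosome 15, 28203752 to 28472052, GRCm38), the heavy chain found along the whole cilium, had 7.80 TPM in replicate 1 and 1.83 in replicate 2, from 1346 and 447 counts. Scaled for library size by TMM, its counts were 3.84-fold lower in replicate 2 (95% interval 3.45 to 4.28). Intervals here cover counting error of the reads only, and with 1 library on each side no difference has a replicate check. By gene-level values Dnah9, which serves the distal part of airway cilia, stood in the opposite order. Its level was 0.73 and 2.01 TPM, and its counts were 2.81-fold higher in replicate 2 (2.10 to 3.79). Dnah11, of the proximal part, was at 1.51 and 1.42 TPM, and its counts differed by less than 2-fold. Dnah8 and Dnah17, the outer arm heavy chains known from the sperm tail, were low. Dnah8 was at 0.09 and 0.35 TPM. Dnah17 had 0 counts in replicate 1, which allows up to 3 counts or 0.186 CPM (counts per 1000000), and 4 counts in replicate 2.

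Of the 10 inner arm heavy chains, which shape the bend of the cilium, 4 reached a TPM of 1 in replicate 1 and 5 in replicate 2. Dnah7a was at 3.89 and 3.84 TPM, Dnah7b at 2.84 and 2.10 TPM, and Dnah7c at 0.71 and 0.43 TPM. These are close paralogs on chromosome 1, so how reads were divided among them is uncertain. Dnah12 was at 5.04 and 2.14 TPM, with counts 2.25-fold lower in replicate 2 (1.83 to 2.76). Dnah6 was at 2.04 and 2.42 TPM, and Dnah3 was at 0.54 and 0.80 TPM. Dnah10, a subunit of the double-headed inner arm, was at 0.05 TPM from 8 counts in replicate 1 and 1.10 TPM from 229 counts in replicate 2. Its counts were 22.5-fold higher in replicate 2 (11.2 to 52.7). Dnah2, its partner in that arm, was at 0.09 and 0.80 TPM, and Dnah1 was at 0.08 and 0.54 TPM. Dnah14 had no counts in either library. The longest Dnah14 transcript in the deposited tables is a retained intron of 1986 bases, so its full coding sequence was not measured.

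Gene-level TPM of some heavy chains rested on short transcripts. A functional heavy chain needs a very long mRNA, and 13 of the 15 have a deposited transcript of at least 10000 bases, a length chosen after the values were seen. For these 13 the gene values summed to 20.4 and 17.7 TPM, while their long transcripts summed to 12.3 and 8.77 TPM. In Dnah5 the 15630-base transcript held all of the gene's counts in both libraries. In Dnah7a the 12245-base transcript was at 0.18 and 0.15 TPM, against 3.89 and 3.84 TPM for the gene. In Dnah11 the 14072-base transcript was at 0.03 and 0.10 TPM and held 6.10% and 16.4% of the counts. In Dnah9 the 13798-base transcript had 32.1 and 56.8 counts, or 52.6% and 26.1% of the gene's counts. It was at 0.21 and 0.26 TPM, so much of the gene-level rise of Dnah9 was on shorter transcripts. Counting long transcripts alone, Dnah5 was the highest heavy chain in replicate 1, with 7.80 TPM against 2.04 TPM for Dnah6. In replicate 2 Dnah6 was the highest, with 2.41 TPM against 1.83 TPM for Dnah5. By gene-level TPM in replicate 2, Dnah7a, Dnah6, Dnah12, Dnah7b and Dnah9 all stood above Dnah5.

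Among the smaller arm subunits, Dynlrb2 (chromosome 8, 116504974 to 116515915), a roadblock-type light chain shared with cytoplasmic dynein, had the highest level in replicate 1 of all members. It was at 89.3 and 164 TPM, or 126 ± 52.6 TPM (SD, n = 2). Its counts were 2.00-fold higher in replicate 2 (1.76 to 2.29), which sits on the 2-fold line. Dnali1, a light intermediate chain of inner arms, was at 6.00 and 12.8 TPM. Dnal1, an outer arm light chain, was at 10.0 and 4.35 TPM, and its counts differed by less than 2-fold. The intermediate chains Dnaic1 and Dnaic2 anchor the outer arm together with Dnah5, and their order was the reverse of the order of Dnah5. Dnaic1 was at 0.96 and 8.13 TPM, with counts 4.24-fold higher in replicate 2 (2.75 to 6.78). Dnaic2 was at 1.60 and 7.02 TPM, with counts 4.78-fold higher (3.50 to 6.65). With the trend of the ratio on GC content over all genes subtracted, the log2 ratio was 0.94 for Dnaic1, -0.54 for Dnaic2 and -1.30 for Dnah5, so Dnaic2 no longer opposed Dnah5.

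Arm assembly factors fold the dyneins in the cytoplasm before they enter the cilium. All 6 reached a TPM of 1 in replicate 2, and 4 did in replicate 1. Cfap298 was the highest in replicate 2, at 6.49 and 39.9 TPM. Cfap300 went the other way, at 14.9 and 3.96 TPM, with counts 3.40-fold lower in replicate 2 (2.65 to 4.4). Dnaaf2 was at 6.38 and 4.31 TPM and Dnaaf5 at 3.88 and 4.83 TPM, both within 2-fold by counts. Dnaaf1 had 3 counts in replicate 1 and 99 in replicate 2, a ratio of 25.9 (8.61 to 128). Dnaaf3 had 6 and 149 counts. An exon of Dnaaf3 overlaps Tnni3 on the same strand, and Tnni3 had a mean of 85.3 TPM, so the reads of Dnaaf3 are uncertain.

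Ccdc39 and Ccdc40 form the molecular ruler that sets where spokes and inner arms attach, and their proteins work as a pair. Their mRNAs were in opposite order in the libraries. Ccdc39 (chromosome 3, 33812362 to 33844310) stood at 18.5 and 4.08 TPM, from 711 and 221 counts, and was 4.10-fold lower in replicate 2 (3.52 to 4.79). Ccdc40 (chromosome 11, 119228572 to 119265238) was at 1.27 and 8.80 TPM, from 25 and 256 counts, and was 8.04-fold higher (5.32 to 12.7). In replicate 1 Ccdc39 was therefore above Ccdc40, and in replicate 2 it was below.

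Among the proteins that tether and modify inner arms, Cfap43 was highest, at 19.3 and 18.4 TPM as deposited. That gene row carries a transcript that the later reference annotation assigns to Itprip, the neighbouring gene on the same strand. The Itprip transcript held 12 counts in replicate 1 and 567 in replicate 2. From its own transcripts alone Cfap43 was at 19.0 and 8.36 TPM, and its counts were 1.96-fold lower in replicate 2 (1.70 to 2.26), where the deposited row was 1.37-fold higher (1.22 to 1.52). Cfap100 was at 2.65 and 6.25 TPM, a TPM ratio of 2.36. Its counts of 15 and 163 were 8.53-fold higher in replicate 2 (5.02 to 15.6). In replicate 1 a transcript of 461 bases held 83.4% of the abundance of Cfap100, from 7 counts, and in replicate 2 it had 0 counts. Cfap44, which forms the tether head with Cfap43, was at 2.95 and 3.65 TPM.

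Radial spoke genes split between the libraries. Rsph1, Rsph4a and Rsph9 encode the spoke head that faces the central apparatus. Rsph1 was at 8.90 and 36.6 TPM, with counts 4.54-fold higher in replicate 2 (3.66 to 5.69). Rsph9 (chromosome 17, 46122035 to 46144216) was at 1.87 and 24.6 TPM, with 14 and 304 counts, 17.0-fold higher (10.0 to 31.5). Rsph4a (chromosome 10, 33905111 to 33916021) was at 15.7 and 4.20 TPM, with 564 and 229 counts, 3.14-fold lower in replicate 2 (2.69 to 3.68). The 3 spoke head genes thus ran from Rsph4a to Rsph9 in replicate 1, highest to lowest, and from Rsph1 to Rsph4a in replicate 2. The stalk genes Rsph3a and Rsph3b are close paralogs, and how their reads were divided is uncertain. They were at 6.33 and 12.96 TPM, and at 7.46 and 22.2 TPM. Rsph14 had 1 count in replicate 1 and 84 in replicate 2, a ratio of 65.9 with a counting interval from 11.5 to 2634. Rsph6a, a spoke head gene known from sperm, had no counts in either library.

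The central apparatus genes, which sit around the central microtubule pair, were low apart from Cfap69. Cfap69 was at 22.5 and 8.52 TPM, with counts 3.41-fold lower in replicate 2 (2.95 to 3.95). In replicate 2 a transcript of 579 bases held 61.1% of the abundance of Cfap69, from 32.5 counts. That transcript had 0 counts in replicate 1. Cfap54 was at 2.60 and 1.27 TPM, with counts 2.59-fold lower (2.10 to 3.19). Cfap65 went the other way, at 0.77 and 3.35 TPM, with counts 5.44-fold higher in replicate 2 (3.91 to 7.74). So did Cfap74, at 0.34 and 1.96 TPM, with counts 8.83-fold higher (4.29 to 21.1). Of the 5 tested genes of this class, 2 were higher and 2 lower, against 39.3% and 28.2% of all genes. Hydin and Cfap46 stayed below a TPM of 1 in both libraries, at 0.13 and 0.48 TPM and at 0.23 and 0.49 TPM.

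Proteins inside the doublet wall held several of the steadiest and several of the least steady members. Cfap20, which lines the seam of the doublet, was at 36.2 and 38.5 TPM, or 37.4 ± 1.58 TPM (SD, n = 2). Cfap161 was at 13.7 and 13.2 TPM. Both were within 2-fold by counts. The tektins, coiled-coil filament proteins of the same wall, were all higher in replicate 2. Tekt1 was at 2.13 and 13.1 TPM, Tekt2 at 0.27 and 10.3 TPM and Tekt5 at 1.30 and 4.50 TPM. Tekt2 rested on 4 and 190 counts, 37.3-fold higher in replicate 2 (14.3 to 138). Tekt4 (chromosome 17, 25454615 to 25476602) went from 0 counts to 175, which is 8.22 TPM in replicate 2. Set at a floor of 3 counts in replicate 1, Tekt4 was at least 45.8-fold higher in replicate 2, a bound at that floor only, since the exact 95% interval reached down to 36.8-fold. Tekt3 had 1 and 18 counts, and its level was below a TPM of 1 in both libraries. Cfap126 was at 8.26 and 44.6 TPM and Cfap45 at 2.45 and 8.52 TPM.

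The remaining 11 members have other or unassigned places in the cilium. Tppp3 (chromosome 8, 105467493 to 105471526), a tubulin polymerization protein, rested on 8 counts (1.15 TPM) in replicate 1 and on 8152 counts (547 TPM) in replicate 2. It was 800-fold higher in replicate 2 (406 to 1853). Among the 73 members it ranked 1 by TPM in replicate 2 and 49 in replicate 1. Sntn (chromosome 14, 13670876 to 13683148), the sentan of the cilium tip, was at 60.3 and 17.0 TPM, 3.21-fold lower by counts in replicate 2 (2.79 to 3.69). Cfap36 was at 85.3 and 29.2 TPM, 2.66-fold lower (2.43 to 2.92). Pifo, known for a role at the base of cilia, was at 31.8 and 29.1 TPM, with a count ratio of 1.01 (0.855 to 1.19). Cfap97 and Cfap299 were at 19.7 and 5.52 TPM and at 12.3 and 6.60 TPM.

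**Figure D2:**
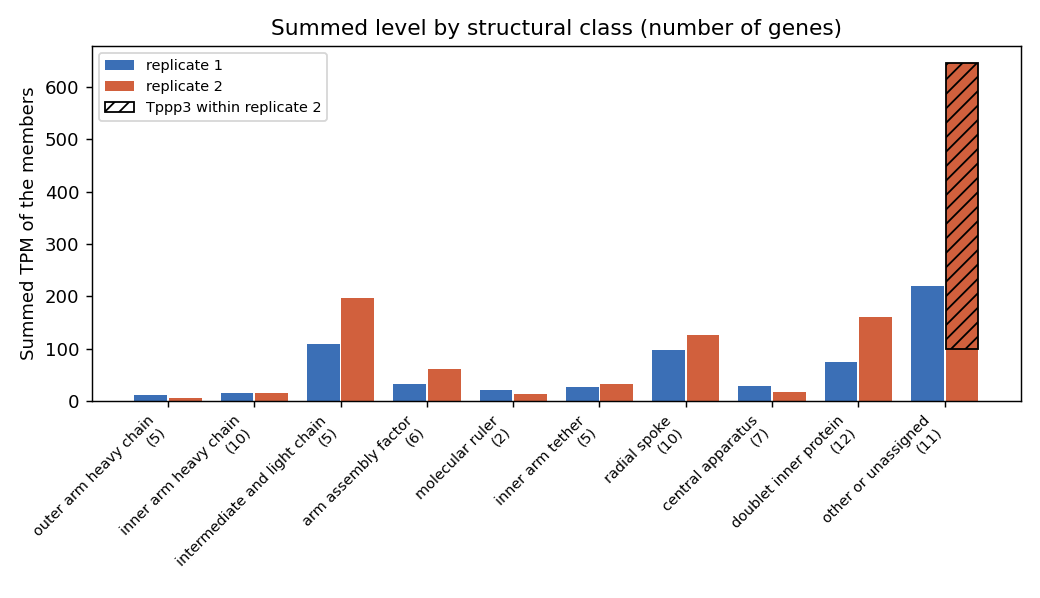
Bars give the summed TPM of each structural class in replicate 1 (blue) and replicate 2 (orange), from 0, with the number of genes in brackets. The hatched part of the last bar is Tppp3. The doublet inner proteins summed to 73.9 and 159.9 TPM, and the intermediate and light chains to 107.9 and 196.0 TPM. The central apparatus summed to 28.3 and 17.2 TPM, of which Cfap69 alone gave 22.5 and 8.52 TPM.

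The 13 members below a TPM of 1 in both libraries were Dnah1, Dnah2, Dnah3, Dnah7c, Dnah8, Dnah14, Dnah17, Cfap46, Cfap73, Hydin, Tekt3, Rsph6a and Cfap97d1. Of the 21474 protein-coding genes, 7958 were below a TPM of 1 in both. In replicate 1, 6 members had no counts, and in replicate 2, 3 had none. Among all 43346 genes, of every type, 17892 and 19597 had counts. Dnah14, Rsph6a and Cfap97d1 had none in either library. Of genes that mark male germ cells, where many axoneme genes are also used, 11 of 11 stayed under a TPM of 1 in each library. They summed to 1.0 and 1.5 TPM, and Odf1 and Gapdhs were at 0. The animal was female, so these low values were given in advance and do not tell the source of the axoneme genes.

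For the ratio between libraries, the 59 members whose mean TPM reached 1 were taken. Past 2-fold lay 37 of them, 27 higher in replicate 2 and 10 lower, and 22 lay within. Of the 14139 genes at that level 67.5% lay past 2-fold, 39.3% of them all being higher and 28.2% lower. The median log2 ratio of replicate 2 over replicate 1 was 0.56 in the members and 0.19 in all those genes. A member can pass the TPM filter through a high value in 1 library alone, so these counts describe the genes that passed. Over the 70 members with a count in either library, 36 were higher and 10 lower (41.6% and 28.4% of 20506 genes). The counting interval lay wholly past 2-fold for 29 members that were higher and 8 that were lower (26.3% and 16.3%). Across the 73 members, Pearson's r of log2(TPM + 1) between the libraries was 0.59 and Spearman's rho of TPM was 0.64, where each point shares its 2 libraries with every other. Without Tppp3 the r was 0.70.

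The ratio between the libraries rose with the GC content of the transcripts. GC content here is the mean over a gene's transcripts in the reference annotation. The members' median was 50.2%, from 40.4% to 59.1%, and that of all genes tested was 50.4%. Below 45% GC, 0 of 8 members were over 2-fold higher in replicate 2 and 7 were lower, where 0.51% of all genes were higher and 82.5% lower. From 45% to 50%, 2 of 21 were higher and 3 lower (9.11% and 34.3% of all genes). From 50% to 55%, 18 of 21 were higher and 0 lower (55% and 7.25%). At 55% or more, 7 of 9 were higher and 0 lower (87.6% and 1.5%). The median log2 ratio climbed from -1.53 to 0.13, 2.42 and 4.17 through these classes. Over the 59 members Pearson's r of GC content and log2 ratio was 0.79 and Spearman's rho was 0.84. Over 14067 genes with a GC value they were 0.77 and 0.82, so the members followed a relation that holds over the whole table. All points share the same 2 libraries, and whether base composition sets the ratios was not tested.

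The pairs that work together but stood in opposite order also differ in composition. GC content was 40.6% for Ccdc39 and 54.6% for Ccdc40. It was 47.1% for Dnah5, 52.1% for Dnaic1 and 55.4% for Dnaic2. In the spoke head it was 43.8% for Rsph4a, 52.7% for Rsph1 and 51.7% for Rsph9. With the GC trend subtracted, the log2 ratios were -0.16 for Ccdc39 and 0.65 for Ccdc40, and -0.30 for Rsph4a and 0.78 for Rsph1, all within 2-fold, while Rsph9 was at 3.12. To show the base composition, the middle 90 coding bases of 6 members, chosen with their ratios known, are printed in the sense direction from the reference transcripts on GRCm38, with every G and C in capitals.
Tppp3, coding bases 220 to 309: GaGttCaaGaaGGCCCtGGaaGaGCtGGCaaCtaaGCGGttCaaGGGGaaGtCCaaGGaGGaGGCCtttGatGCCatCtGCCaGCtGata
Tekt4, coding bases 626 to 715: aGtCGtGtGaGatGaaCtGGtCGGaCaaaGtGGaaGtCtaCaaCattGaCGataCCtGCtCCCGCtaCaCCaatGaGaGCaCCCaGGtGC
Rsph9, coding bases 370 to 459: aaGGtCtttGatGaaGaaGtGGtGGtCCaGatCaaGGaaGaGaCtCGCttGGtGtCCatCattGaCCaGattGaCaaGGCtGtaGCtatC
Sntn, coding bases 176 to 265: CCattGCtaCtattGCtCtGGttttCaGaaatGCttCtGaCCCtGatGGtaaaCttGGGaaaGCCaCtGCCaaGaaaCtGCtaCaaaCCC
Rsph4a, coding bases 1030 to 1119: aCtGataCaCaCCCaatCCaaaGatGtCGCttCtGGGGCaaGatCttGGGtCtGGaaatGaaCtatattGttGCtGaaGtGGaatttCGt
Ccdc39, coding bases 1361 to 1450: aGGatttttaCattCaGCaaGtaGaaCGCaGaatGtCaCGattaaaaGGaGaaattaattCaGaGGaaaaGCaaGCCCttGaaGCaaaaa
The Tppp3 window holds 49 G or C bases of 90, the Tekt4 window 47 and the Rsph9 window 42, and these genes were higher in replicate 2. The Sntn window holds 41, the Rsph4a window 39 and the Ccdc39 window 32, and these genes were lower there. The windows of Rsph9 and Sntn thus differ by a single base in this count, although the genes stood in opposite order. Over the whole coding sequence the shares were 56.6%, 58.2% and 56.0% in Tppp3, Tekt4 and Rsph9, and 44.0%, 47.1% and 41.2% in Sntn, Rsph4a and Ccdc39. A high GC content did not always go with a high ratio: Dnaaf5, at 58.2%, had counts 1.38-fold higher in replicate 2 (1.12 to 1.70).

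After the trend of the ratio on GC content over all genes was subtracted, 19 of the 59 members were over 2-fold higher in replicate 2 and 3 were lower, against 22.6% and 20.5% of all genes. Of the 27 higher before, 15 were among the 19, and 4 others (Cfap43, Cfap44, Cfap61 and Dnah6) had been within 2-fold. The Cfap43 call, at 1.19, is of the deposited row, which includes the Itprip transcript. From its own transcripts the log2 ratio of Cfap43 before subtraction was -0.97, so its place among the 19 rests on that row. Of the 10 lower before, 1 stayed, which was Dnah5. The members' median was then 0.62 on the log2 scale and that of all genes was -0.02. Furthest above the trend stood Tppp3 at 5.23, Tekt4 at 4.18, Rsph14 at 4.0, Rsph9 at 3.12 and Cfap52 at 2.93. Below it by more than 2-fold were Dnaaf5 at -3.72, Dnaaf2 at -3.36 and Dnah5 at -1.30, of which Dnaaf5 and Dnaaf2 had been within 2-fold. Calls described above were also lost for Cfap298 (0.36), Dnaaf1 (0.63), Dnaaf3 (0.02), Cfap300 (-0.95), Cfap36 (-0.25), Cfap54 (-0.49) and Cfap69 (-0.09). Dnaic2 (-0.54), Tekt5 (-0.55), Dnali1 (-0.17), Sntn (0.22), Cfap97 (0.41) and Dnah12 (0.17) changed sign.

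**Figure D3:**
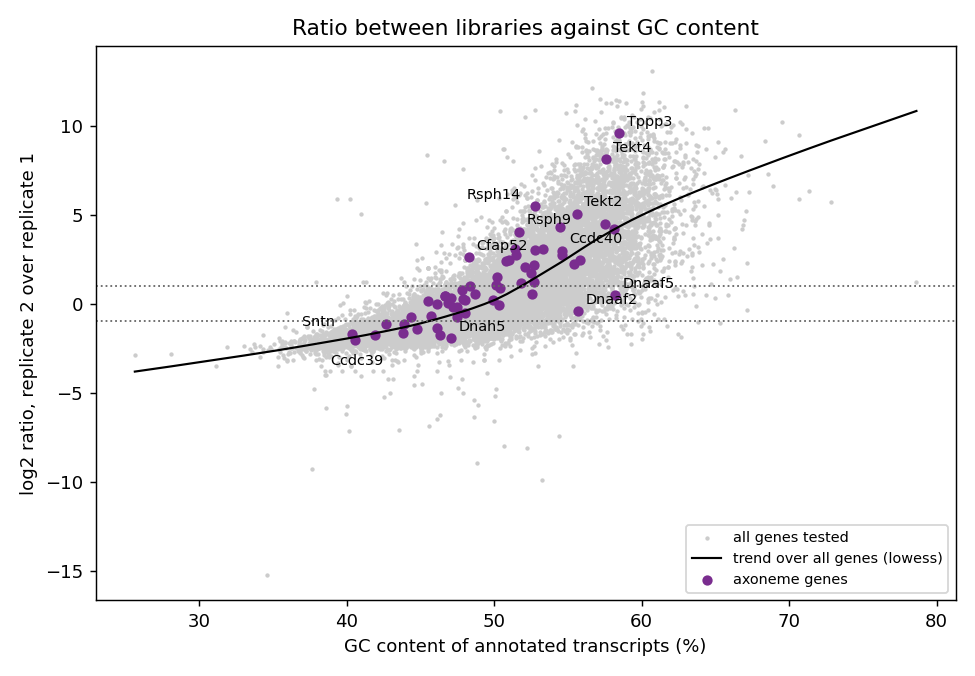
Each point is a gene, with the GC content of its transcripts on the x axis and its log2 ratio of replicate 2 over replicate 1 on the y axis, for all genes tested (grey) and the axoneme genes (purple). The line is the trend over all genes and the dotted lines mark 2-fold. Axoneme genes rise with GC content, from Ccdc39 at -2.03 to Tppp3 at 9.56. Furthest from the trend are Tppp3, Tekt4, Rsph14 and Rsph9 above it, and Dnaaf2 and Dnaaf5 below it.

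Markers of cell types moved between the libraries as well. Ciliated cell genes outside the rule, 13 in number, had a total of 713.9 and 794.6 TPM, and 12 and 13 of them reached a TPM of 1. Of these, 7 of 13 were over 2-fold higher in replicate 2 and 2 lower, against 39.3% and 28.2% of all genes. Sec14l3, the most abundant of them, was at 366 and 318 TPM, and its counts differed by 1.04-fold (1.01 to 1.06). Fam183b and Tmem212 were higher in replicate 2, at 39.8 and 78.2 TPM and at 25.6 and 78.9 TPM, and Mlf1 was lower, at 83.1 and 30.0 TPM. The 5 club cell markers summed to 24497 and 186363 TPM, the 5 alveolar type 2 markers to 2836 and 46704 TPM and the 4 alveolar type 1 markers to 915 and 3746 TPM. Most of each rise came from 1 gene. These were Scgb1a1 at 17498 and 174257 TPM, Sftpc at 287 and 39612 TPM and Ager at 13.7 and 2508 TPM. The club cell marker Scgb3a2 was at 4671 and 4406 TPM. Each of these 3 cell type lists went both ways, with 3 higher and 1 lower in the first, 3 and 1 in the second and 2 and 1 in the third. Aldh1a1 was at 1785 and 732 TPM, Lamp3 at 687 and 191 TPM and Rtkn2 at 136 and 57.6 TPM. The 5 mesothelial markers summed to 206 and 120.0 TPM, with 2 higher and 3 lower. Gpm6a, at 176 and 29.9 TPM, carried that sum, while Msln was at 2.03 and 39.5 TPM and Upk3b at 6.85 and 42.8 TPM. The list of 5 ependymal and neural genes, some of which lung cells may share, summed to 42.0 and 377 TPM. Rarres2 gave 6.59 and 344 TPM of these sums. That list went both ways too, with 2 higher and 1 lower of the 3 tested. The lower gene was Sox2, at 23.4 and 5.3 TPM. Among these marker lists only Gfap had no counts in a library, in replicate 1. The part of these shifts in the levels of the axoneme genes was not tested.

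Regulators of multiciliation differed in both directions. Of 11 tested, 6 were over 2-fold higher in replicate 2 and 4 lower, against 39.3% and 28.2% of all genes, with a median log2 ratio of 2.26. Foxj1, the forkhead factor that switches on motile cilium genes, had 3 counts at 0.11 TPM in replicate 1 and 1649 counts at 42.8 TPM in replicate 2, a ratio of 431 (147 to 2094). Foxj1 was thus under a TPM of 1 in replicate 1, where 49 axoneme genes were above it. E2f4 and E2f5 act with the multiciliation regulators and stood in opposite order, at 4.05 and 29.9 TPM and at 30.2 and 9.81 TPM. Myb was at 9.91 and 2.74 TPM. The X-box factors were also opposed, with Rfx2 at 0.26 and 5.0 TPM and Rfx3 at 6.23 and 1.27 TPM. GC content was 61.4% for Foxj1, 57.6% for Rfx2, 47.8% for Rfx3, 56.3% for E2f4 and 46.6% for E2f5.

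RFX factors bind the X-box, a palindromic element found before many cilium genes, and it was looked for in the RefSeq promoters of the members (GRCm38.p6, 250 bases before to 50 after each start site, both strands). Of the 73 members, 60 had a promoter. A relaxed form of the X-box, which fixes GT, CC, GG and AC and leaves the pairs of bases between them free, was found in 8 of the 60, or 13.3%, where 2.16% of 27025 genes and 1.88% of all windows of that length hold it. A strict form, which also fixes a T after the first GT and an A before the last AC and whose matches are among those, was found in 2 of 60, or 3.33%, against 0.529% of genes. The forkhead core TGTTTAC was found in 5 of 60, or 8.33%, against 4.05% of genes. The 8 X-box matches are printed because they mark members with a shared element, in the direction of the gene, with the match in capitals.
Cfap298, chr16:90935016-90935045, minus strand: gggttttgGTTGCCCGGGCAACagctactt
Pifo, chr3:106001496-106001525, minus strand: gcggttccGTTCCCTTGGCAACgtagtaca
Cfap206, chr4:34730208-34730237, minus strand: cgcgttccGTTTCCACGGTTACgcgactgc
Dnaaf5, chr5:139150209-139150238, plus strand: tagcgccgGTTCCCTTGGAGACaggcaacg
Rsph9, chr17:46144185-46144214, minus strand: ggctcaggGTCTCCATGGAGACagcttcta
Cfap126, chr1:171122955-171122984, plus strand: tgttcaagGTATCCATGGCTACttctcagt
Cfap77, chr2:29055281-29055310, minus strand: ggcgtcttGTCACCAAGGAGACgggacgtt
Tekt4, chr17:25471422-25471451, plus strand: ccccacctGTGTCCTGGGAAACaaactcat
Cfap298 and Pifo hold the strict form. The match began 20 bases before the start site in Pifo, 23 in Cfap206 and 18 in Dnaaf5, and 188 before it in Cfap298. The Cfap77 and Tekt4 matches began 236 and 160 bases before a start site. Levels of these 8 members ran from 4.58 TPM in Cfap77 to 44.6 TPM in Cfap126 in replicate 2. Between the libraries 4 of them (Cfap298, Rsph9, Cfap126 and Tekt4) were over 2-fold higher in replicate 2, against 39.3% of all genes, and the other four were within 2-fold by counts.

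Genes that work beside the axoneme proteins were compared as lists, to be read against the 39.3% of all genes that were higher and the 28.2% that were lower. Of 20 tested genes for docking, the nexin-dynein link and arm assembly outside the rule, 13 were over 2-fold higher in replicate 2 and 2 lower. The chaperone helicases Ruvbl1 and Ruvbl2 were at 5.26 and 24.3 TPM and at 0.27 and 31.0 TPM, and Drc3, of the nexin-dynein link, was at 10.1 and 18.7 TPM. Iqcg, of the same link, was at 13.9 and 5.34 TPM. Of 18 other axonemal genes, 4 were higher and 5 lower, with Nme5, of the radial spokes, at 59.9 and 28.3 TPM and Enkur at 38.3 and 10.3 TPM. Lrrc23 was at 4.58 and 31.0 TPM, and 1700007K13Rik at 25.7 and 32.9 TPM. Of 23 intraflagellar transport genes, which build cilia of every kind, 9 were higher and 7 lower. Ift20 was at 58.0 and 136 TPM, Ift43 at 24.3 and 60.3 TPM, Ift57 at 54.6 and 24.8 TPM and Hspb11 at 109.7 and 33.2 TPM. Of 13 cytoplasmic dynein genes, which serve transport in all cells, 4 were higher and 3 lower. The light chain Dynll1 was at 1391 and 487 TPM and Dynlt3 at 398 and 92.4 TPM. Dynlrb1, the widely used paralog of Dynlrb2, was at 216 and 239 TPM, and the intermediate chain Dync1i2 was at 156 and 59.9 TPM.

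**Figure D4:**
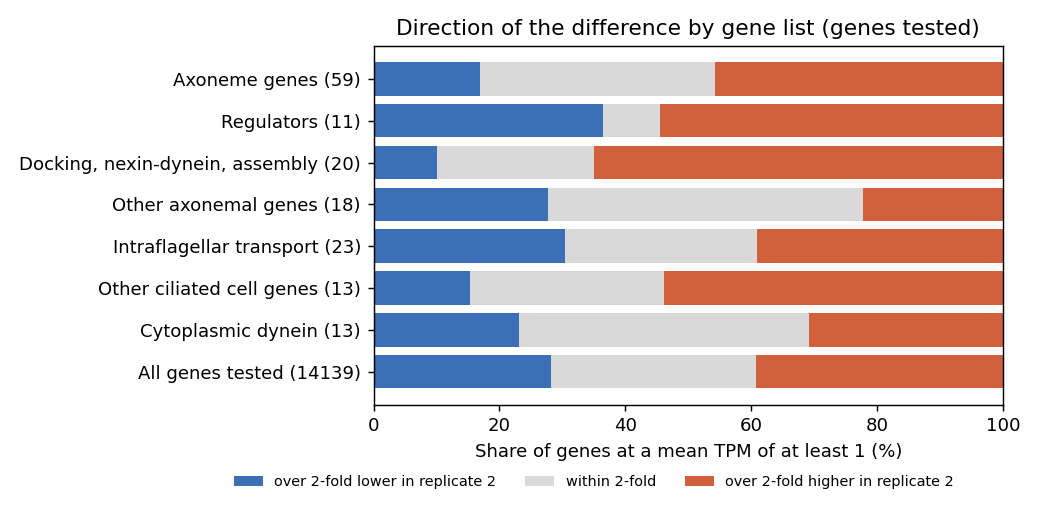
Each bar divides the genes of a list with a mean TPM of at least 1 into those over 2-fold lower in replicate 2 (blue), within 2-fold (grey) and over 2-fold higher (orange), in percent, with the number of genes in brackets. All genes tested, the bottom bar, were 39.3% higher and 28.2% lower. The list of docking, nexin-dynein and assembly genes had 13 of 20 higher, and intraflagellar transport had 9 of 23.

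The libraries also differed in which transcript of a gene was assigned most reads. Of 35 members at a TPM of at least 1 in both libraries and with 2 or more transcripts, 21 (60.0%) had the same leading transcript, meaning the one with the largest share of the gene's abundance. In 14 members it differed, where 31.7% of 8231 genes differed. Protein-coding transcripts held 86.6% of the members' TPM in replicate 1 and 96.1% in replicate 2. Cfap206, a protein of the spoke base, shows what this does to a level. Its gene TPM was 51.2 in replicate 1 and 10.98 in replicate 2, although its counts of 360 and 322 differed by less than 2-fold. In replicate 1 a processed transcript of 690 bases held 90.7% of the gene's abundance, at 46.5 TPM, and in replicate 2 it held 2.26%, at 0.25 TPM. The coding transcript of 2246 bases went from 4.6% to 86.5%, or from 2.36 to 9.49 TPM. The coding level of Cfap206 was thus lower in replicate 1, while its gene-level TPM was higher there.

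Other members changed too, and in Cfap45, Cfap57, Cfap69, Tekt5, Dnaic2 and Tppp3 the change was between coding transcripts. Cfap57, of the inner arm tether, was assigned wholly to a transcript of 3750 bases in replicate 1, with 54 counts, and wholly to one of 4020 bases in replicate 2, with 143 counts. Tekt5 was assigned wholly to a transcript of 1277 bases in replicate 1, with 16 counts, and of 1803 bases in replicate 2, with 115 counts. Dnaic2 was assigned wholly to a transcript of 2799 bases in replicate 1, and in replicate 2 a transcript of 2874 bases held 78.2%. For Tppp3 the transcript of 1127 bases held 19.99% in replicate 1, from 2.44 counts, and 98.2% in replicate 2, from 8007 counts. In Cfap53 a transcript annotated for nonsense-mediated decay held 61.6% in replicate 1 and 4.27% in replicate 2. In Cfap43 the transcript that led in replicate 2 was that of Itprip.

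**Figure D5:**
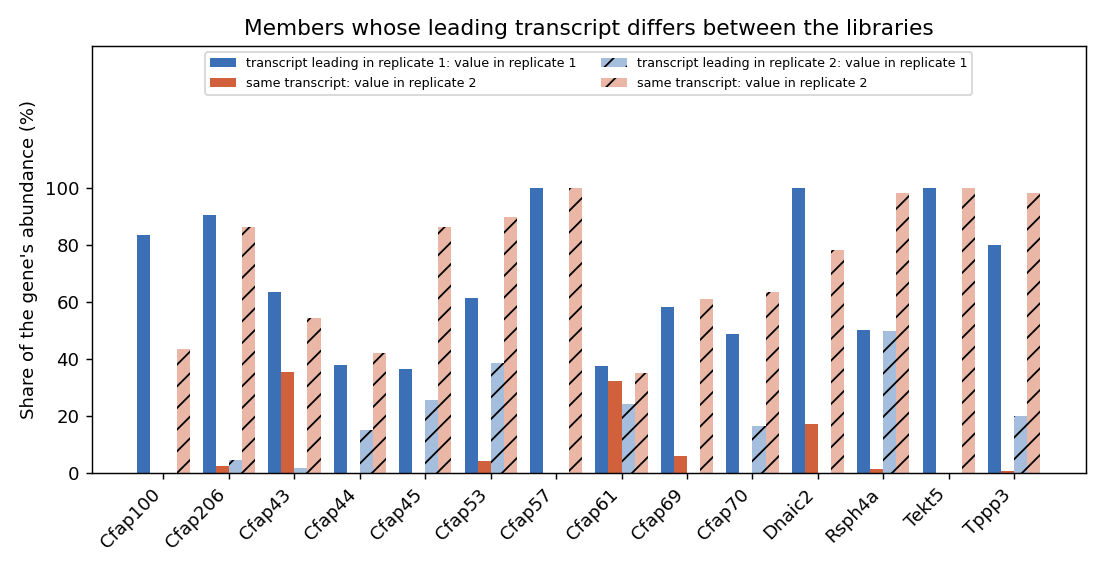
For each of the 14 members whose leading transcript differed, solid bars give the share of the gene's abundance held in replicate 1 (blue) and replicate 2 (orange) by the transcript that led in replicate 1. Hatched bars give the same for the transcript that led in replicate 2, which for Cfap43 is that of Itprip. In Cfap57 and Tekt5 each transcript held all of the abundance in 1 library and none in the other.

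Exons of 35 members overlap those of another gene, for 5 of them on the same strand and for 33 on the opposite strand. Whether counting used the strand is not given in the sources used here, so reads of such pairs may be mixed. Rsph10b, which overlaps Pms2 on the same strand, was at 3.04 and 4.81 TPM, and Pms2 had a mean of 5.0 TPM. Overlaps on the opposite strand include Ccdc39 with Ttc14 (mean 11.1 TPM) and Dnaic1 with Enho (13.1 TPM). They also include Dnali1 with Gnl2 (29.0 TPM) and Cfap97 with Snx25 (51.8 TPM). The levels and ratios of these members are uncertain if counting did not use the strand.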

How the data were processed

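Expected counts, per the file headers, are the authors' estimates of reads per gene and transcript. TPM and FPKM were computed by the authors, per the file headers, as abundances corrected for length, and the percent of a gene's abundance held by each transcript was deposited by the authors. Assembly mm10 and annotation release M4 are per the labels and deposited descriptions. Aligner and quantifier: not given in the sources used here. Symbols, GC content and positions came from GENCODE M21 on GRCm38, which matched 42462 of 43346 gene rows. Another 26345 rows of the tables name no gene and held 0 counts.

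Rounded counts were scaled by TMM (edgeR 4.0.16), with a prior of 0.5 counts in log2 ratios and exact Clopper-Pearson intervals at 95%. The floor for 0 counts was 3 counts, or 0.186 and 0.175 CPM. Reads are not independent molecules, so intervals and floors cover counting error only. The GC trend was fitted by lowess (span 0.3). The calculation of the ratio was tested on simulated data in which few genes differed, equally in both directions. In the real libraries 67.5% of genes tested lay past 2-fold, so the simulation does not show how well TMM scales them. Python 3.11.15, scipy 1.17.1 and statsmodels 0.14.6 were used.

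Members and lists were chosen with earlier results of these data known. Members named were the 25 of highest mean TPM, the 8 highest and 8 lowest ratios with at least 100 counts, those at 0 in 1 library with at least 20 counts in the other, and every heavy chain. The 4 of highest mean TPM were named from each pathway list. Ccdc40, Dnaic1, Dnaic2, Dnaaf2, Dnaaf5, Cfap44, Cfap46, Cfap52, Cfap53, Cfap57, Cfap65, Cfap74, Cfap77, Hydin, Rsph10b, Rsph14, Tekt3, Tekt5, Rfx2, Rfx3 and several markers of other cells were given values after those were seen. Cfap61 was named after its ratio was seen. Alternatives covered scaling, TPM thresholds, the prior, GC content, paralogs and the choice of leading transcript.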

Additional observations from a re-analysis of the deposited data

How the results depend on the processing

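At a TPM of at least 5, 24 members were detected in replicate 1, 29 in replicate 2 and 17 in both. The summed TPM was 630.8 to 1270.2 with either library left out. With the filter raised to a mean TPM of 10, 7 members were higher in replicate 2 past 2-fold and 5 lower, with a median log2 ratio of 0.25. The median was 0.82 with scaling by total counts, 1.02 with no TPM filter and 0.75 without the Dnah7 paralogs. The number over 2-fold lower was 3 with the GC trend subtracted. That subtraction also turned the log2 ratio of Cfap97 to 0.41, Dnah12 to 0.17, Dnaic2 to -0.54, Dnali1 to -0.17, Sntn to 0.22 and Tekt5 to -0.55, and the cause was not tested. Dynlrb2 fell under the 2-fold line with DESeq2 (version 1.42.0) size factors, at 0.96, and by the ratio of TPM, at 0.87. At a TPM of at least 5 in both libraries, 6 of 9 members had the same leading transcript. Leaving out Tppp3, taking Cfap43 from its own transcripts and setting counts under 3 to 3 were chosen after seeing the data. No paired analysis was possible because the libraries form 1 group. With 1 animal nothing here measures variation between animals, and genes under about 20 counts have wide intervals.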
